A study of Danio rerio with 15 samples.

Results

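*marco* and *mfap4* are genes that zebrafish macrophages express, and their transcripts were measured in sorted *mpeg*-GFP+ cells of single juvenile fish. They were chosen by Ensembl identifier, ENSDARG00000059294 for *marco* and ENSDARG00000090783 for *mfap4*, and are 2 of the 35117 genes in the table. Both passed the filter on low counts, which 17640 genes passed. The study asked how macrophages depend on the receptors Csf1ra and Csf1rb and on their ligand Il34. Cells were sorted from 15 fish in 5 groups of 3, and amplified cDNA was sequenced as paired reads. Control fish were wildtype tg(mpeg-GFP), sampled at 33 days post fertilization (dpf) and at 1.5 months post fertilization (mpf). csf1rDM fish were homozygous for the j4e1 allele of *csf1ra* and the re01 allele of *csf1rb*, in tg(mpeg-GFP), and were sampled at the same ages. *il34* mutants were homozygous for the re03 allele in tg(mpeg-GFP) and were sampled at 1.5 mpf alone. Titles of the older samples name an age of 5 months, whereas the stage recorded for them is 1.5 mpf, which is used here. The reporter was shared by all groups. It marks macrophages and also metaphocytes, which are cells reported in the skin and the intestine. Metaphocytes resemble macrophages but are described as derived from ectoderm, so that a sorted sample can hold both.

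Marco, the macrophage receptor with collagenous structure, is a class A scavenger receptor that sits on the cell surface and binds bacteria and other particles before they are taken up. Mfap4 belongs to the secreted proteins with a fibrinogen-related domain, and in zebrafish its promoter is used to label macrophages in reporter lines. Csf1r is a receptor tyrosine kinase that macrophages need for survival, proliferation and migration, and Il34 is one of its ligands.

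Library totals ran from 5488201 to 106374902 counts, and the deepest library was that of csf1rDM fish 2 at 33 dpf. Levels are given as CPM, the counts of a gene scaled to the total of its library, with a correction by the trimmed mean of M-values (TMM). At this depth 3 counts, taken as the smallest level that a library can show, corresponded to 0.0301 to 0.496 CPM. Transcripts of the mutated genes were still counted, and what each allele does to its transcript was not analysed here, so these levels are no strict check of the labels. *csf1ra* ran from 115 to 206 CPM in controls and was at most 33.9 CPM in csf1rDM fish, and *csf1rb* ran from 113 to 405 CPM in controls and from 5.47 to 45.4 CPM in csf1rDM fish. *il34* ran from 6.02 to 19.2 CPM in *il34* mutants and from 11.4 to 22.0 CPM in controls of their age. The 3 identifiers named MPEG1 in the symbol table, which were chosen after their values were seen, summed to between 2416 and 8605 CPM in every fish, although 1 of them was at 0 throughout. Their sums were 6074 to 8605 CPM in csf1rDM fish and 2416 to 3987 CPM in controls at 33 dpf. As these are bulk samples, fewer cells of one type and less RNA per cell cannot be told apart.

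*marco* was abundant in control cells and low in csf1rDM cells. Controls at 33 dpf had 205, 388 and 318 CPM, and csf1rDM fish of that age had 0, 74.5 and 30.0 CPM. The highest csf1rDM fish lay below the lowest control. In csf1rDM fish 1 no *marco* read was counted among 10110020, which by counting error alone allows a level of up to 0.303 CPM. The study reports that whole csf1rDM fish yielded far fewer *mpeg1*+ cells than controls. Loss of transcripts in amplification from few cells was not tested. At 1.5 mpf controls had 482, 664 and 1048 CPM, whereas csf1rDM fish had 15.5, 13.5 and 17.2 CPM. All 3 csf1rDM fish at this age were close to each other and far below every control. *il34* mutants had 181, 211 and 155 CPM, which is between these groups.

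*mfap4*, the secreted macrophage gene, varied less among controls. At 33 dpf they had 211, 224 and 201 CPM, and csf1rDM fish had 0, 20.6 and 4.62 CPM. At 1.5 mpf controls had 219, 279 and 216 CPM, and csf1rDM fish had 0, 1.73 and 8.40 CPM. Thus 1 csf1rDM fish of each age had no *mfap4* count, and none of the other 4 reached the lowest control. *il34* mutants had 145, 136 and 176 CPM, all below the lowest control of their age.

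**Figure D1:**
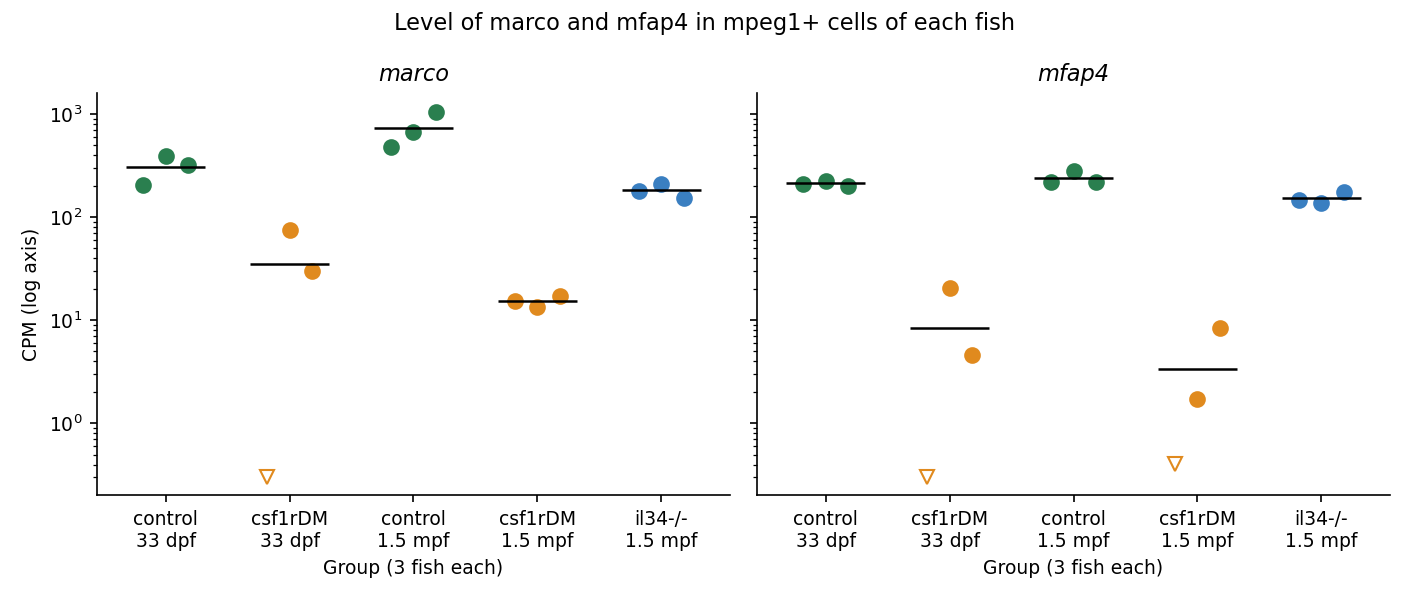
Level of *marco* and of *mfap4* in each of the 15 fish, in CPM on a log axis, by genotype and age. Each point is 1 fish, horizontal lines are group means, and open triangles are fish with 0 counts, drawn at the level of 3 counts. All csf1rDM fish lie at or below 74.5 CPM for *marco* and 20.6 CPM for *mfap4*, under every other fish.

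The order of the group means was the same for both genes, from controls at 1.5 mpf through controls at 33 dpf, *il34* mutants and csf1rDM fish at 33 dpf to csf1rDM fish at 1.5 mpf. For *marco* these means were 732 ± 289, 304 ± 92.2, 182 ± 28.3, 34.9 ± 37.5 and 15.4 ± 1.85 CPM (SD, n = 3 each). For *mfap4* they were 238 ± 35.2, 212 ± 11.7, 152 ± 20.8, 8.41 ± 10.8 and 3.38 ± 4.44 CPM (SD, n = 3 each). Neighbours that overlapped in *marco* were the younger controls and the *il34* mutants, which were at different ages (exact permutation test, two-sided, p = 0.2), and both csf1rDM groups (exact permutation test, p = 1). In *mfap4*, both control groups overlapped (exact permutation test, p = 0.3), as did both csf1rDM groups (exact permutation test, p = 0.8). The remaining neighbours did not overlap, each with an exact permutation p = 0.1, which is the minimum for groups of 3. In the comparisons of 3 fish with 3 given below, 9.74 to 12.4% of all genes likewise lay without overlap in the same direction. No such share was counted for *il34* mutants against either group at 33 dpf, which differ from them in both age and genotype. The upper pair in *mfap4* changed places when counts were scaled by library size only, with 235 CPM in controls at 33 dpf and 224 CPM at 1.5 mpf.

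Over both ages, *marco* and *mfap4* both fell in csf1rDM cells. *marco* averaged 518 ± 303 CPM in controls and 25.1 ± 26.0 CPM in csf1rDM fish (SD, n = 6 each), a 20.6-fold difference of the means. Its mean difference was -4.34 ± 0.82 on the log2 scale (SE), with a 95% interval of -6.11 to -2.58 (edgeR's quasi-likelihood test, p adjusted by Benjamini-Hochberg over all genes tested, adjusted p = 0.00615). *mfap4* averaged 225 ± 27.5 CPM in controls and 5.89 ± 7.89 CPM in csf1rDM fish (SD, n = 6 each), a 38.2-fold difference. Its mean difference was -5.38 ± 0.99 on the log2 scale (SE), with an interval of -7.52 to -3.24 (edgeR, adjusted p = 0.00535). In this comparison 3.17% of all genes tested were called lower, and 2.66% were lower without overlap between 6 fish and 6, as both genes were. The calls of both genes were kept without any 1 of the 12 fish, with adjusted p between 4.89e-05 and 0.0242 for *marco* and between 0.00337 and 0.0234 for *mfap4* (edgeR). The folds of the means depended on csf1rDM fish 2 at 33 dpf, the highest of the 6, without which they were 33.9 for *marco* and 76.3 for *mfap4*.

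Within 1 age, 3 fish against 3, both genes were lower in every csf1rDM fish than in every control, but only *marco* at 1.5 mpf passed the test. At 33 dpf the difference between csf1rDM and control cells was -3.11 ± 1.09 for *marco* (SE, 95% interval -5.47 to -0.76, edgeR adjusted p = 0.168). For *mfap4* it was -4.62 ± 1.35 (SE, interval -7.53 to -1.72, edgeR adjusted p = 0.0922). Neither was called at this age, at which 1.34% of all genes were called lower and 12.4% were lower without overlap. Without csf1rDM fish 1, the one with no *marco* count, the *marco* difference was -2.52 with an edgeR adjusted p = 0.0135 and was called. At 1.5 mpf *marco* fell by 5.57 ± 1.23 on the log2 scale (SE, interval -8.22 to -2.92, edgeR adjusted p = 0.0389). *mfap4* had the larger difference, -6.13 ± 1.46 (SE, interval -9.28 to -2.99), but missed the threshold with an edgeR adjusted p = 0.0562. The means differed 47.5-fold for *marco* and 70.5-fold for *mfap4*, and the *mfap4* fold was 275 without csf1rDM fish 3 and 47.0 without csf1rDM fish 1, the one with no *mfap4* count. At this age 1.2% of all genes were called lower and 11.6% were lower without overlap. The *marco* call at 1.5 mpf was lost without any 1 of the 6 fish compared, with edgeR adjusted p between 0.0587 and 0.166. DESeq2 called *marco* at 1.5 mpf (difference -5.59, adjusted p = 6.83e-05) and over both ages (-4.37, adjusted p = 3.28e-06) but not at 33 dpf (-3.16, adjusted p = 0.0537). It called many more genes lower than edgeR did, 911 against 211 of 17640 at 1.5 mpf and 1587 against 559 over both ages. For *mfap4* its default rule for outlying counts withheld the adjusted p.

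**Figure D2:**
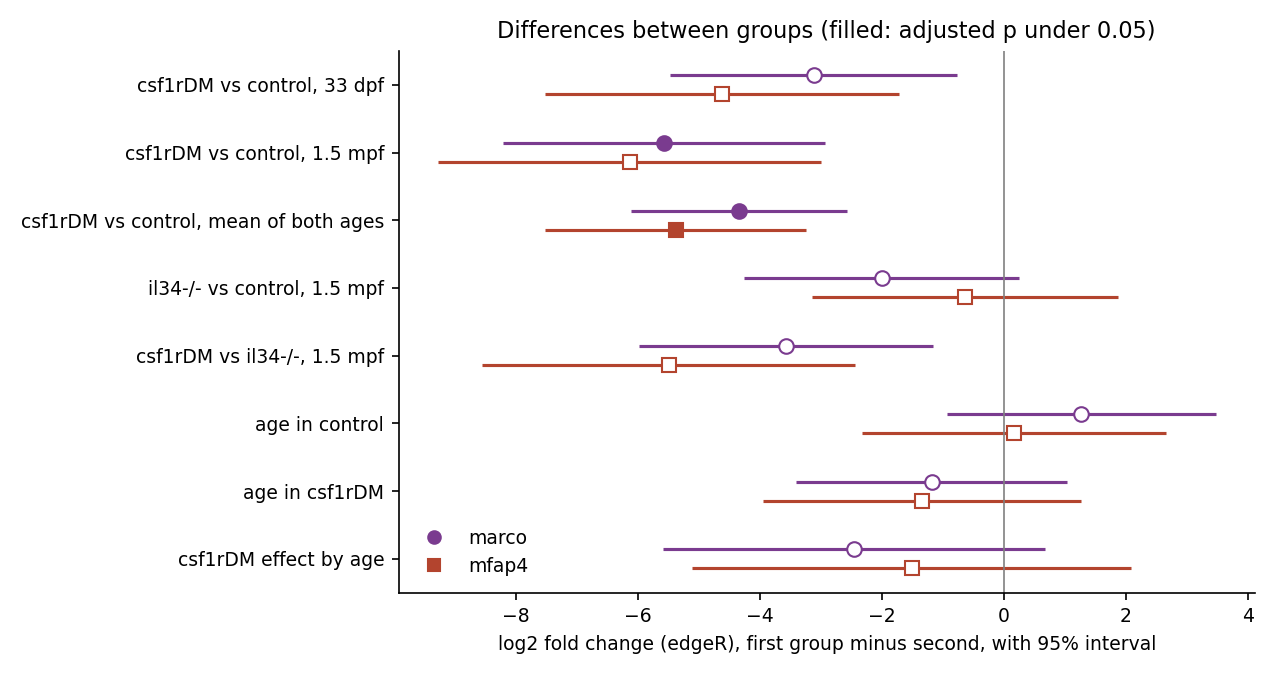
Log2 fold change of *marco* and *mfap4* in each of 8 comparisons, with 95% intervals as bars. Filled points passed the edgeR threshold of adjusted p under 0.05, namely both genes for csf1rDM against control over both ages and *marco* at 1.5 mpf.

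In fish mutant for the ligand gene *il34*, both genes averaged below controls but neither difference passed the test. The *il34* mutants and the csf1rDM fish at 1.5 mpf were compared with the same 3 controls. *marco* averaged 4.01-fold lower in *il34* mutants, without overlap, and its difference was -2.01 ± 1.04 (SE, 95% interval -4.26 to 0.25, edgeR adjusted p = 0.497). *mfap4* averaged 1.56-fold lower, also without overlap, with a difference of -0.64 ± 1.16 (SE, interval -3.15 to 1.86, edgeR adjusted p = 0.972). Neither gene was called, while 0.323% of all genes were called lower and 10.6% were lower without overlap. The adjusted p depended on the fit. Under the alternatives other than leaving out a fish, its lowest edgeR value was 0.0667 for *marco* and 0.272 for *mfap4*, still without a call.

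csf1rDM fish and *il34* mutants were also compared directly at 1.5 mpf. *marco* was 11.8-fold lower in csf1rDM fish, with a difference of -3.56 ± 1.12 (SE, 95% interval -5.98 to -1.15, edgeR adjusted p = 0.151). *mfap4* was 45.1-fold lower, or 176-fold without csf1rDM fish 3 and 30.1-fold without csf1rDM fish 1, with a difference of -5.49 ± 1.42 (SE, interval -8.55 to -2.44, edgeR adjusted p = 0.0741). The fish did not overlap in either gene and neither difference was called. In this comparison 0.952% of all genes were called lower and 11.5% were lower without overlap. For *marco* the call depended on the test. It passed when only these 2 groups were fitted (-3.57, edgeR adjusted p = 0.00627) and with DESeq2 (-3.53, adjusted p = 0.0280). DESeq2 called 898 of 17640 genes lower here, against 168 in the main fit. The fit of these 2 groups alone called 94 of 13953 lower.

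Between 33 dpf and 1.5 mpf, control fish did not overlap in *marco* but did in *mfap4*. The older controls had 2.41-fold more *marco*, a difference of 1.27 ± 1.02 on the log2 scale (SE, 95% interval -0.93 to 3.47, edgeR adjusted p = 0.887). For *mfap4* the difference was 0.17 ± 1.16 (SE, interval -2.33 to 2.66, edgeR adjusted p = 1), and it was -0.070 with library size only. Of all genes, 0.743% were called higher in the older controls and 9.74% were higher without overlap. In csf1rDM fish, the difference with age was -1.19 ± 1.03 for *marco* (SE, interval -3.40 to 1.03, edgeR adjusted p = 0.855) and -1.34 ± 1.21 for *mfap4* (SE, interval -3.95 to 1.26, edgeR adjusted p = 0.876). These values turned to 0.041 and 0.53 without csf1rDM fish 2 at 33 dpf, the deepest library. Age changed 0.215% of all genes in csf1rDM fish. The test of whether the csf1rDM difference itself changed with age gave -2.46 ± 1.45 for *marco* (SE, edgeR adjusted p = 0.613) and -1.51 ± 1.67 for *mfap4* (SE, edgeR adjusted p = 0.920), and 0.238% of all genes passed it. With 1 fish left out, the *marco* value ranged from -3.01 without csf1rDM fish 1 at 33 dpf to -1.19 without csf1rDM fish 2 at 33 dpf, with edgeR adjusted p between 0.0579 and 0.945.

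The level of *mfap4* relative to *marco* was compared as the log2 ratio of their counts in a library, each with 0.5 added. Gene length does not enter a comparison of this ratio between groups, although the ratio itself is not a ratio of molecules. It averaged -0.47 ± 0.45 in controls at 33 dpf, -1.56 ± 0.63 in controls at 1.5 mpf and -0.25 ± 0.41 in *il34* mutants (SD, n = 3 each). The 3 *il34* mutants, at -0.32, -0.63 and 0.19, lay above all controls of their age, at -1.14, -1.25 and -2.28. The difference was 1.30 on the log2 scale (two-sided exact permutation p = 0.1, which is the minimum for groups of 3, adjusted p = 0.228 over 7 comparisons). The older controls likewise lay below the younger ones without overlap, by -1.09 (exact permutation test, p = 0.1, adjusted p = 0.228). In csf1rDM fish the ratio was widely spread. At 33 dpf it was -1.85 and -2.69 in fish 2 and 3, and fish 1 had neither transcript and so no ratio. At 1.5 mpf it was -7.85, -2.95 and -1.03, the lowest value being that of the fish with no *mfap4* count. Over both ages csf1rDM fish differed from controls by -1.72 (exact permutation test, p = 0.13, adjusted p = 0.228). In this test the fish that lacks both transcripts was entered at 0, which the 0.5 added gives. No ratio passed the threshold, which comparisons of 3 fish with 3 could not pass. The difference over both ages was -2.09 without the fish that lacks both transcripts and -0.74 without the fish at -7.85, whose ratio is set by the 0.5 added. It was -2.44 without csf1rDM fish 3 at 1.5 mpf, and -1.27 with 3 added to each count.

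**Figure D3:**
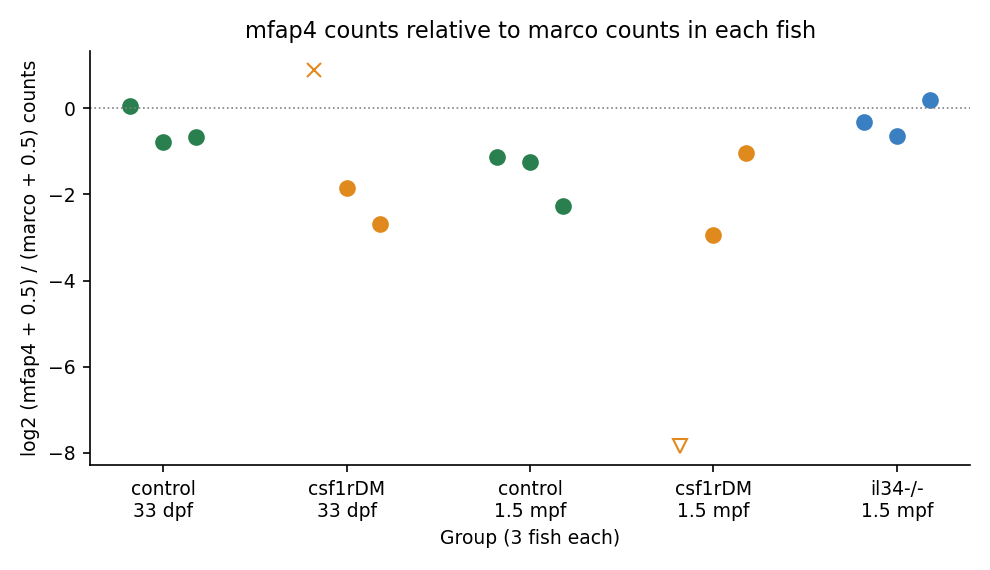
Log2 ratio of *mfap4* to *marco* in each fish, by group, from counts with 0.5 added to each gene. Each point is 1 fish, the open triangle is the csf1rDM fish with *mfap4* at 0, at -7.85, and the cross at the top marks the fish with both genes at 0, which has no ratio. The 3 *il34* mutants lie above the 3 controls of the same age.

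*mfap4* is 1 of 13 identifiers of a gene family in the table. The symbol table gives MFAP4 as the name of 6 identifiers, this one among them, and 12 paralogs in all were found by symbol, of which 11 passed the filter and *mfap4.9* had no count in any fish. On a newer assembly, GRCz12tu, 13 *mfap4* genes lie on 1 chromosome within a run of 26 protein-coding genes. Reads can be shared among such copies, and how the counting treated them is not given in the sources used here, so the split of counts among them is uncertain. *mfap4* held 63.4 ± 7.66% of the family's counts in controls at 33 dpf, 56.5 ± 10.9% in controls at 1.5 mpf and 56.9 ± 0.981% in *il34* mutants (SD, n = 3 each). In csf1rDM fish it held 16.8 ± 17.9% at 33 dpf and 7.50 ± 10.1% at 1.5 mpf (SD, n = 3 each). These shares rest partly on few counts. csf1rDM fish 1 of each age, with no *mfap4* count, had 43 family counts at 33 dpf and 92 at 1.5 mpf, against 1952 to 4709 in controls. The family as a whole was therefore compared too. It summed to 336 ± 26.0 and 429 ± 79.3 CPM in controls at 33 dpf and 1.5 mpf, and to 31.2 ± 26.8 and 35.5 ± 20.2 CPM in csf1rDM fish (SD, n = 3 each). *il34* mutants had 268 ± 37.9 CPM (SD, n = 3).

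The paralogs other than *mfap4* summed to 124 ± 36.1 and 191 ± 77.4 CPM in controls and to 22.8 ± 16.8 and 32.1 ± 18.2 CPM in csf1rDM fish at 33 dpf and 1.5 mpf (SD, n = 3 each). Most of this in controls was ENSDARG00000088745, with 85.3 ± 17.3 and 147 ± 78.0 CPM, against 6.56 ± 7.84 and 2.57 ± 1.72 CPM in csf1rDM fish. It fell by 4.77 on the log2 scale over both ages (edgeR adjusted p = 0.00121). Of the 11 paralogs tested, 2 were called lower over both ages and 0 higher, against 3.17% and 2.7% of all genes. The other was ENSDARG00000090557, which had only 1 to 23 counts in control fish. It passed the filter only through controls, so that it could only come out lower or uncalled. ENSDARG00000038683 had 2.32 and 8.91 CPM in controls and 7.72 and 15.8 CPM in csf1rDM fish at the 2 ages, with a difference of 1.28 that was not called (edgeR adjusted p = 0.750).

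**Figure D4:**
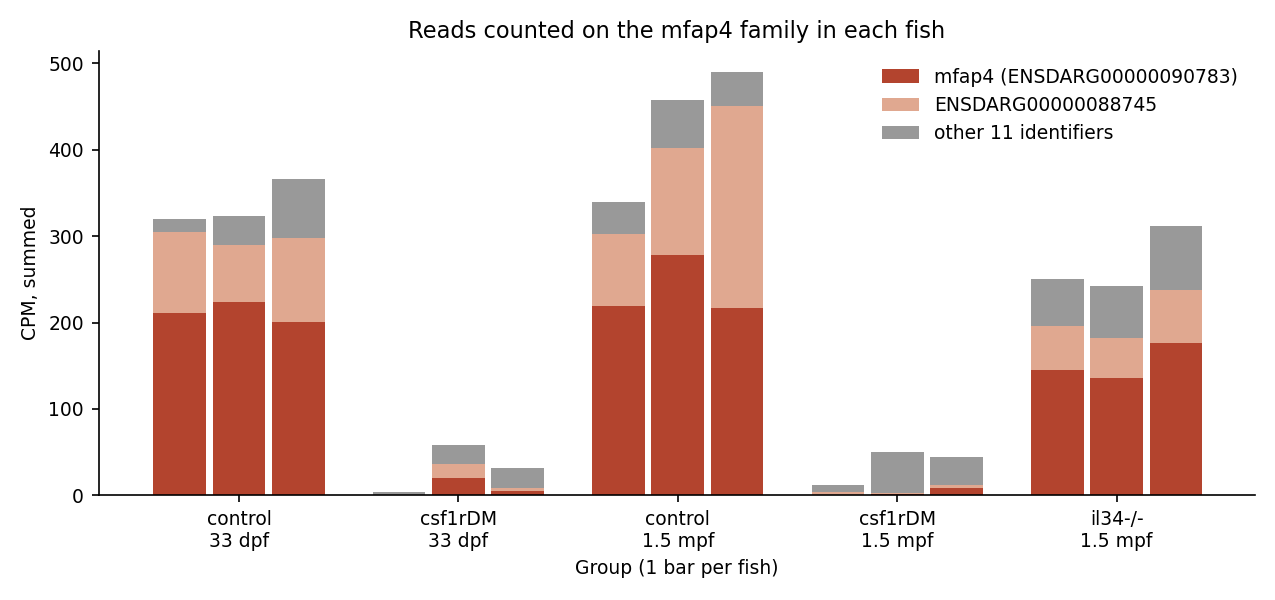
CPM of the *mfap4* family in each fish, stacked as *mfap4*, ENSDARG00000088745 and the other 11 identifiers. In controls and *il34* mutants *mfap4* is 44.1 to 69.4% of the family's counts, and in csf1rDM fish 0 to 35.6%.

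Marco is 1 of several receptors by which macrophages bind and take up particles or dying cells. A list of 14 scavenger and engulfment symbols was examined beside it, not all of them for receptors of uptake. Of these, 11 matched an identifier and 9 passed the filter. Over both ages 6 of the 9 were called lower in csf1rDM cells, against 3.17% of all genes, and 0 higher. Their median difference was -4.71, against -0.05 over all genes tested. Among the 6, *scara3* and *timd4* passed the filter only through controls, so that they could only come out lower or uncalled. The median takes them in as well. The number called lower ranged from 4 to 6 under the alternatives, and also from 4 to 6 with 1 fish left out. *stab1*, which encodes the scavenger receptor stabilin-1, averaged 209 ± 31.7 and 140 ± 66.8 CPM in controls at 33 dpf and 1.5 mpf and 0.0491 and 0.0556 CPM in csf1rDM fish, the last at or under the level of a few counts (edgeR adjusted p = 1.83e-07). *havcr1*, of the TIM family of receptors for phosphatidylserine on dying cells, averaged 193 ± 23.2 and 338 ± 91.1 CPM in controls and 12.6 ± 15.5 and 13.2 ± 9.65 CPM in csf1rDM fish, a difference of -4.32 (edgeR adjusted p = 0.000932). *mertka*, which encodes a receptor tyrosine kinase of dying-cell uptake, averaged 50.6 ± 40.8 and 68.4 ± 10.0 CPM in controls and 6.41 ± 7.39 and 0.0115 CPM in csf1rDM fish (edgeR adjusted p = 0.00258). *scarb2a*, a lysosomal membrane gene, fell less, by 1.34 (edgeR adjusted p = 0.0127). *scara3* and *timd4* were called with all 6 csf1rDM libraries at 0, so no fold is given (edgeR adjusted p = 0.0391 and 0.0344). Both were low in controls too, at 3.54 and 8.11 CPM for *scara3* and 4.08 and 4.65 CPM for *timd4* at 33 dpf and 1.5 mpf. Each was at 0 in 1 control at 33 dpf. *il34* mutants averaged 0.187 CPM of *scara3* and 0.0436 CPM of *timd4*. *colec12*, *cd36* and *scarb1* were not called. In single ages, 2 of the 9 were called lower at 33 dpf and 3 at 1.5 mpf, against 1.34% and 1.2% of all genes. In *il34* mutants 0 of the 9 were called, against 0.323% of all genes called lower, with a median difference of -1.60 against -0.12 over all genes. The study discusses *stab1*, *havcr1* and *mertka* in its own mutant fish, so their direction is not independent evidence.

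A list of 10 macrophage genes, some of them named by the study as macrophage genes in its own fish and some added here, matched 6 identifiers, all tested. Over both ages 3 were called lower in csf1rDM cells, against 3.17% of all genes, and 0 higher. These were *csf1ra* and *csf1rb*, the mutated receptor genes, and *cebpb*, a transcription factor of myeloid cells, with a difference of -2.49 (edgeR adjusted p = 1.52e-05). Those not called were *spi1a*, *irf8* and *tlr1*, a Toll-like receptor gene. *spi1a*, which encodes a transcription factor of myeloid cells, had a difference of 0.12 (edgeR adjusted p = 0.458). *irf8*, another such factor, was at 0.34 (edgeR adjusted p = 0.338), and *tlr1* was at -0.29 (edgeR adjusted p = 0.667). *spi1b*, also on the list, matched no identifier and was not examined. Thus in the cells that were low in *marco* and *mfap4* the *spi1a* difference had a 95% interval of -0.05 to 0.29, with levels of 1621, 1664 and 1840 CPM in csf1rDM fish at 33 dpf and 1635, 1980 and 2180 CPM at 1.5 mpf. In *il34* mutants *cebpb* alone was called lower, against 0.323% of all genes, with a difference of -1.29 (edgeR adjusted p = 0.0451).

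**Figure D5:**
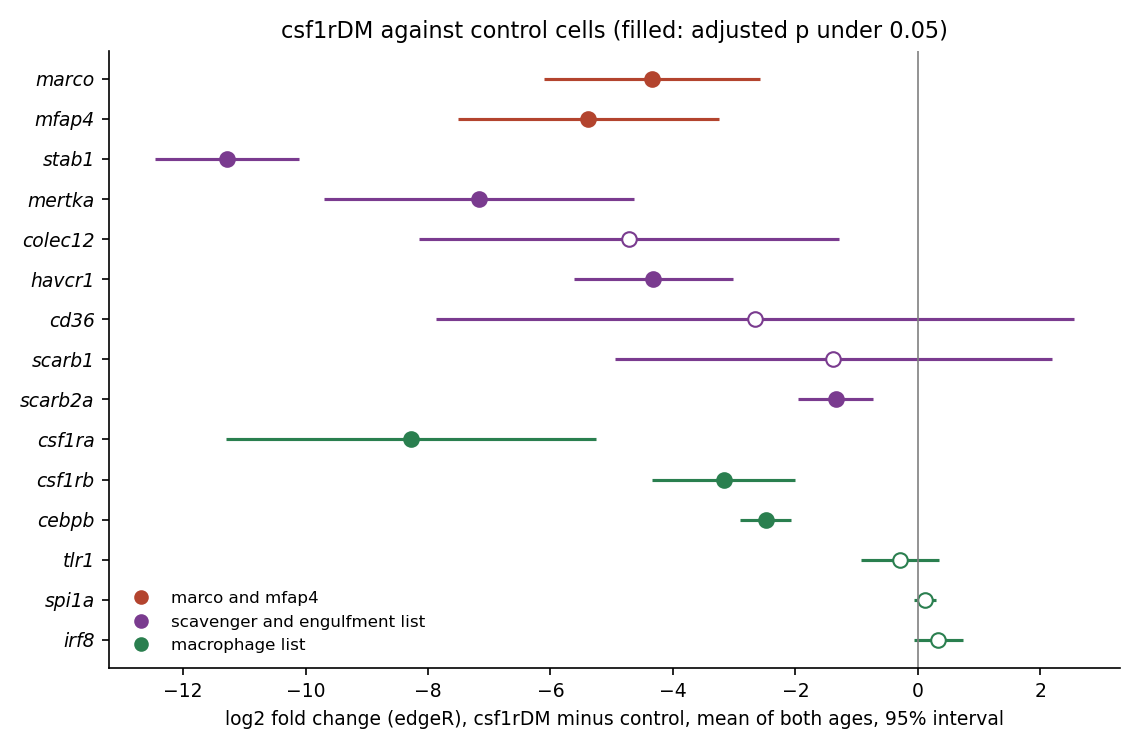
Log2 fold change, csf1rDM minus control, as the mean of both ages with 95% intervals as bars, for *marco*, *mfap4*, the scavenger and engulfment genes and the macrophage genes. *scara3* and *timd4* are left out, since all 6 csf1rDM libraries were at 0. Filled points passed the edgeR threshold. *marco* lies at -4.34, *mfap4* at -5.38, *havcr1* at -4.32 and *spi1a* at 0.12.

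The csf1rDM fish differed among themselves in both genes. Fish 2 at 33 dpf had the highest *marco* and *mfap4* of the 6, 74.5 and 20.6 CPM, and was the deepest library. It also held 33.9 CPM of *csf1ra*, from 3382 counts, whereas the other 5 csf1rDM fish had 0 or 1 count of it. It had 14.5 CPM of *mertka*, the most of the 6. Fish 1 at 33 dpf, with neither *marco* nor *mfap4*, had 44.9 CPM of *csf1rb* and 30.4 CPM of *havcr1*, the most of its group. The part of this *csf1ra* transcript in the levels of *marco* and *mfap4* was not tested. Without fish 2 the difference over both ages was called for *marco* and for *mfap4*, as it was without each of the others.

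Markers of other cells moved with the same contrast. The metaphocyte list, of which 3 of 4 symbols matched, summed to 155 to 180 CPM in controls and 651 to 1151 CPM in csf1rDM fish at 33 dpf, and to 303 to 474 and 897 to 1164 CPM at 1.5 mpf. *il34* mutants had 141 to 259 CPM. Of its genes *cdh1*, which encodes E-cadherin, and *epcam*, an epithelial adhesion gene, rose over both ages by 3.29 and 2.25 (edgeR adjusted p = 7.21e-05 and 0.00243), whereas *cd4-1*, a CD4 homologue, fell by 2.17 (edgeR adjusted p = 0.000143). Of all genes, 2.7% were called higher over both ages and 3.17% were called lower. The study names these genes as metaphocyte genes and reports a metaphocyte profile in its juvenile csf1rDM cells. The rise of *cdh1* and *epcam* is therefore not independent evidence. Keratinocyte genes, of which 3 of 4 matched, summed to 896 to 954 CPM in csf1rDM fish and 335 to 644 CPM in controls at 33 dpf, and to 726 to 1037 and 243 to 640 CPM at 1.5 mpf, and 1 of the 3, *krt4*, was called higher over both ages (1.04, edgeR adjusted p = 0.0181). Erythrocyte genes, 2 of 3, summed to 0.908 to 20.5 CPM in csf1rDM fish and 23.0 to 159 CPM in controls over both ages, and 1 of them, *hbaa1*, was called lower (-2.93, edgeR adjusted p = 0.0126). T cell genes (4 of 4, *cd4-1* being in this list and in the metaphocyte list) summed to 20.6 to 53.0 CPM in csf1rDM fish and 75.0 to 82.4 CPM in controls at 33 dpf, and to 83.1 to 152 and 253 to 313 CPM at 1.5 mpf, without overlap at either age. *il34* mutants had 121 to 171 CPM of them, also below controls of their age. Lower without overlap in csf1rDM fish were 12.4% of all genes at 33 dpf and 11.6% at 1.5 mpf, and in *il34* mutants 10.6%. Of the 4, *cd4-1* alone was called over both ages. *cd8a* also fell (-1.44), whereas *lck* and *zap70* went the other way (0.26 and 1.08), none of them called. At 1.5 mpf *cd4-1* averaged 164 CPM in controls, 30.0 CPM in csf1rDM fish and 65.9 CPM in *il34* mutants. *lck* averaged 32.8, 59.2 and 62.1 CPM in the same groups, so the lower sums did not hold for each gene of the list. Neutrophil genes (3 of 4) summed to between 8.93 and 121 CPM and B cell genes (3 of 3) to between 0 and 50.5 CPM, and their csf1rDM and control fish overlapped at both ages. Among these lists *pax5*, a B cell gene, was at 0 in all csf1rDM fish and all *il34* mutants, but also in 1 control of each age. Its control means were low, 7.93 CPM at 33 dpf and 2.66 CPM at 1.5 mpf. *ckma*, a muscle gene, was at 0 in csf1rDM fish at 1.5 mpf. Muscle genes (2 of 3) summed to 1153 CPM in 1 control at 33 dpf and to at most 79.4 CPM in the other 14 fish. At 1.5 mpf they summed to 39.7 to 79.4 CPM in controls, above csf1rDM fish (18.6 to 34.0 CPM) and *il34* mutants (13.9 to 33.2 CPM) without overlap. So did 11.6% and 10.6% of all genes in these comparisons. At 33 dpf controls and csf1rDM fish overlapped, and neither muscle gene was called over both ages. The part of these cells in the levels of *marco* and *mfap4* was not tested.

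Across the 6 csf1rDM fish, in which both ages overlapped, the correlation of *marco* with *mfap4* in log2 CPM was r = 0.712 (permutation p = 0.0361, adjusted p = 0.0573 over 3 relations) and rho = 0.841 (permutation p = 0.0444, adjusted p = 0.0667). Without the 2 fish farthest from the median of *marco* r was 0.410, so that it rested on those, and it did not pass the threshold after adjustment. The other relations pooled controls with *il34* mutants, which did not overlap at 1.5 mpf in either gene, and no r is given for them because it would hold the gap between the groups. Among the 3 *il34* mutants the order of the fish in *mfap4* was the reverse of that in *marco*.

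Over all 15 libraries, whose genotypes set most of the spread, the gene most like *marco* in log2 CPM was *olmf4l1* (r = 0.978), followed by *ccr12a*, a chemokine receptor gene (r = 0.965). *olmf4l1* averaged 323 ± 64.0 and 517 ± 124 CPM in controls at 33 dpf and 1.5 mpf, 21.6 ± 29.0 and 11.3 ± 7.19 CPM in csf1rDM fish and 229.8 ± 24.6 CPM in *il34* mutants (SD, n = 3 each). The gene most like *mfap4* was *sb:cb81* (r = 0.967), with 502 ± 12.7 and 753 ± 158 CPM in controls, 41.3 ± 31.4 and 68.3 ± 68.1 CPM in csf1rDM fish and 329 ± 38.2 CPM in *il34* mutants (SD, n = 3 each). ENSDARG00000088672 followed it (r = 0.933). *marco* and *mfap4* themselves had r = 0.891, so that *mfap4* ranked 33rd among the genes most like *marco*, and *marco* ranked 39th for *mfap4*.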

How the data were processed

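Gene counts were deposited by the authors as 1 table of whole numbers for the 15 libraries, without normalization. Per the labels, juvenile fish were cut up and dissociated with trypsin on ice, GFP+ cells were sorted into Trizol, and cDNA was amplified with the SMART-seq V4 kit. The submitters' processing notes name CASAVA 1.8, cutadapt, STAR 2.5.4b, Cufflinks 2.2.1, HTSeq 0.11.0, edgeR and the build GRCz10. The annotation release, the strand setting and the treatment of reads that match several genes are not given in the sources used here. Symbols came from a reference table that named 27000 of 35117 identifiers. Gene neighbours came from GRCz12tu, so no coordinates or sequences are given.

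Genes were filtered by filterByExpr over the 5 groups, normalized by TMM and fitted in 1 quasi-likelihood model with robust dispersions (edgeR 4.0.16, R 4.3.3), with 1 coefficient per group. P-values were adjusted by Benjamini-Hochberg over the 17640 genes tested, at 0.05. Standard errors are the log2 fold change divided by the square root of F, and 95% intervals use the t distribution. CPM were TMM-scaled. log2 CPM for likeness had a prior count of 2. Each fish is 1 sample. The standard errors, intervals and p-values of edgeR rest on 1 spread per gene, estimated over all 5 groups. They are therefore not the spread of the compared fish alone, and they take in csf1rDM fish at 0 counts even where these are not compared. The level of 3 counts covers counting error only. The script was tested on simulated data with known changes. Named genes were *marco*, *mfap4*, the 2 genes with the highest Pearson correlation with each over the 15 libraries, and the members of the lists (macrophage, scavenger and engulfment, metaphocyte, neutrophil, keratinocyte, erythrocyte, T cell, B cell and muscle genes, and *mfap4* paralogs). *marco*, *mfap4* and the lists were chosen with earlier results of these data known. Alternatives were RLE, upper quartile and library size scaling, DESeq2 1.42.0 (which gave *mfap4* no adjusted p), other filters, fits of the compared groups alone or without robust estimation, thinned counts, a replicate block, a stricter threshold, and leaving out each fish. Those for the counts of list genes were added with the data in view. DESeq2 was run without its filter on mean counts. Its default rule for outlying counts was kept, which withholds a p-value, as for *mfap4*. Matplotlib 3.10.9 drew the figures.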

Additional observations from a re-analysis of the deposited data

How the results depend on the processing

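The decreases of *marco* and *mfap4* in csf1rDM cells over both ages kept their direction and their call under each alternative run that gave an adjusted p and without each of 12 fish. Of values recomputed other than by leaving out a fish, 219 stayed the same, 5 gained a call, 2 lost it, 1 reversed and 1 moved. With a fish left out 181 stayed the same, 1 gained, 6 lost and 4 reversed. Staying the same meant direction and call for a test, and a mean within the SD of its group for a level. Ratio comparisons of 3 fish with 3 or fewer could not be called, so for them staying the same meant direction alone. For a count of list genes it meant only a similar number. The scavenger and engulfment count, 6 in the main fit, fell as low as 4 and was still scored the same. Thinned to the smallest total in 1 draw, *mfap4* was called at 33 dpf (-4.77, edgeR adjusted p = 0.0444), at 1.5 mpf (-6.17, adjusted p = 0.0252) and against *il34* mutants (-5.46, adjusted p = 0.0393). The *marco* difference from *il34* mutants was called with only these groups fitted (-3.57) and with DESeq2 (-3.53), which called more genes lower than edgeR did. At 1.5 mpf *marco* (-5.57) missed the stricter threshold of adjusted p under 0.01. With library size only, which moved the median of all genes by -0.18 at 33 dpf, 0.11 between *il34* mutants and controls, -0.22 with age in controls and 0.21 in the change of the csf1rDM difference with age, *mfap4* differed with age in controls by -0.070 and averaged 235 CPM in controls at 33 dpf. With 1 fish left out, *marco* ranged from -4.40 to -2.52 at 33 dpf and from -5.80 to -5.17 at 1.5 mpf. With age in csf1rDM fish it ranged from -1.80 to 0.041, and *mfap4* from -3.13 to 0.53. The change of the *mfap4* difference with age ranged from -3.23 to 0.40, and these 3 turned without csf1rDM fish 2 at 33 dpf. In controls *mfap4* with age ranged from -0.028 to 0.22 and turned without fish 2 at 1.5 mpf. The cause of these changes was not tested, beyond the fewer fish. With a replicate block *marco* at 1.5 mpf was -5.48 (edgeR adjusted p = 0.0719) and no longer called. Same-numbered fish did not clearly deviate together in any of 12 pairs (r from -0.020 to 0.077). This gave no sign that the numbers pair fish, but a check on so few fish cannot exclude it. With 3 fish a group, the intervals at 1 age span several log2 units.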
